A study of Mus musculus with 24 samples.

Results

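Embryonic fibroblasts are the usual feeder cells of mouse embryonic stem cell (ESC) cultures, and their RNA can enter an ESC library. The genes described here are 10 fibroblast matrix and surface genes, Col1a1, Col1a2, Col3a1, Fbn1, Postn, Lum, Dcn, Mmp2, Pdgfrb and Thy1, chosen by symbol from the 55385 Ensembl genes of each expression table. All 10 were found in each of the 6 tables, and the question was whether they moved together or apart. The tables hold 24 RNA-seq libraries of naive mouse ESCs in 12 groups of 2, and each table was normalized on its own.

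In the first table, ESCs stained with TMRM, a dye taken up by mitochondria according to their membrane potential (ΔΨm), were sorted into high ΔΨm cells and low ΔΨm cells, the latter being the spontaneous quiescent ESCs (qESCs). In the second, ESCs received a non-targeting siRNA or siRNA against Mat2a, which codes for the enzyme that makes S-adenosylmethionine (SAM). In the third, etomoxir blocked fatty acid oxidation (FAOi) and H2O was the control. In the fourth, a MYC inhibitor (MYCi) was compared with DMSO. The fifth holds Eed heterozygous (Eed fl/-) and Eed null (Eed -/-) lines, Eed being a subunit of Polycomb repressive complex 2 (PRC2). In the sixth, low ΔΨm cells received 25 or 50 µM SAM, with no untreated group in that table. The methods give 2 independent biological replicates per dataset, without saying from which cultures, and the p-values here therefore reflect the spread between sequenced samples, part of which may be technical.

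By the methods, ESCs were kept without feeders on a coated surface in 2i/LIF medium, and the labels do not name the cell line of most tables. The Eed lines differ from the rest in this respect. They were derived from blastocysts of crosses with a floxed Eed allele and a Protamine Cre, and both genotypes were expanded on mitomycin-treated mouse embryonic fibroblast (MEF) feeders in a medium with serum. The methods do not say whether feeders were removed before RNA was taken, nor how many lines of each genotype were sequenced. Below, the heterozygous line and the null line stand for the libraries of each genotype, and differences between lines cannot be told from those between genotypes. Bulk libraries cannot tell fewer cells of a type from less RNA per cell.

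Type I collagen, a trimer of the Col1a1 and Col1a2 chains, is the main fibrous collagen that fibroblasts secrete, and Col3a1 codes for type III collagen, which forms mixed fibrils with it. Periostin (Postn) and fibrillin-1 (Fbn1) are matrix proteins, and lumican (Lum) and decorin (Dcn) are small leucine-rich proteoglycans that bind collagen fibrils. Mmp2 is a secreted gelatinase, Pdgfrb is a receptor for platelet-derived growth factor (PDGF) on mesenchymal cells, and Thy1 is a surface protein of fibroblasts that other cells carry too. Cultured fibroblasts are known for high levels of the collagens, while Fbn1, Mmp2, Pdgfrb and Thy1 are also used by other lineages.

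In GRCm38, Col1a1 lies at chr11:94936224-94953042, Col1a2 at chr6:4504814-4541544, Col3a1 at chr1:45311538-45349706 and Postn at chr3:54361109-54391037. Lum (chr10:97565128-97572703) and Dcn (chr10:97479609-97518143) are neighbours. Mmp2 lies at chr8:92827291-92853420, Pdgfrb at chr18:61045150-61085061 and Thy1 at chr9:44043384-44048579. Fbn1 lies on the minus strand at chr2:125300594-125507993, and 2442 of its exon bases, 20.1%, are shared with Gm9913 on the opposite strand. Fragments were counted without strand, so that the Fbn1 values can hold fragments of Gm9913. Col3a1 shares 1.44% of its exon bases with the miRNA gene Gm47302 on its own strand, and the other 8 members share no exon base with another gene of the annotation. All 10 are protein-coding.

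Dcn, Col3a1, Postn and Lum were the lowest members. Dcn was listed at 0 in 17 of 24 libraries and did not exceed 0.0374 FPKM (fragments per kilobase of exon and per unit of sequencing depth, a level per gene length). Col3a1 did not exceed 0.0243 FPKM. Postn was at 0 in 9 libraries and at no more than 0.0174 FPKM in all but the Eed null ones, and Lum reached at most 0.177 FPKM. In estimated fragments, read from the steps between low FPKM values, Dcn had 3 or fewer in 22 libraries, Postn in 19, Col3a1 in 16 and Lum in 13, and Col1a1 exceeded 3 in all 24. A count of 3 fragments is the limit that a count of 0 allows, and like all such estimates here it covers counting error only. The libraries hold an estimated 27.2 to 64.2 M fragments over Ensembl genes.

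The other members were measurable at low levels. Pdgfrb ranged from 0.175 to 4.36 FPKM with a median of 0.715, Mmp2 from 0.0523 to 4.3 with a median of 0.455 and Fbn1 from 0.122 to 1.86 with a median of 0.263. Col1a1 ranged from 0.0389 to 6.8 FPKM with a median of 0.122, and its only values of at least 1 were the 2 of the Eed heterozygous line. Thy1 had a median of 0.111 and a highest level of 1.73 FPKM, and Col1a2 a median of 0.0377 and a highest level of 0.419. A test required 2 or more libraries of the table to reach 0.1 FPKM. Fbn1, Mmp2 and Pdgfrb passed in all 6 tables, Col1a1 in 5, Thy1 in 4, Col1a2 in 2, Postn and Lum in 1 each, and Col3a1 and Dcn in none, which left 31 tests. Some members passed through 1 group alone, so that the filter fixed the direction of their change as deposited. These were Col1a1, Col1a2 and Thy1 in the Mat2a table and Postn and Col1a2 in the Eed table. Lum in the sorted cells and Thy1 with etomoxir were further cases. Among the list genes named below, the same held for Foxf1, Foxd1 and Tgfb3 in the Eed table. It also held for Gata6, Dab2, Ltbp2, Thbs2 and Acta2 in the Mat2a table. In the sorted cells it held for Thbs1, P4ha2, Gata4, Gata6 and Ltbp2, and with etomoxir for Timp3. Counts of list genes called include such genes.

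**Figure D1:**
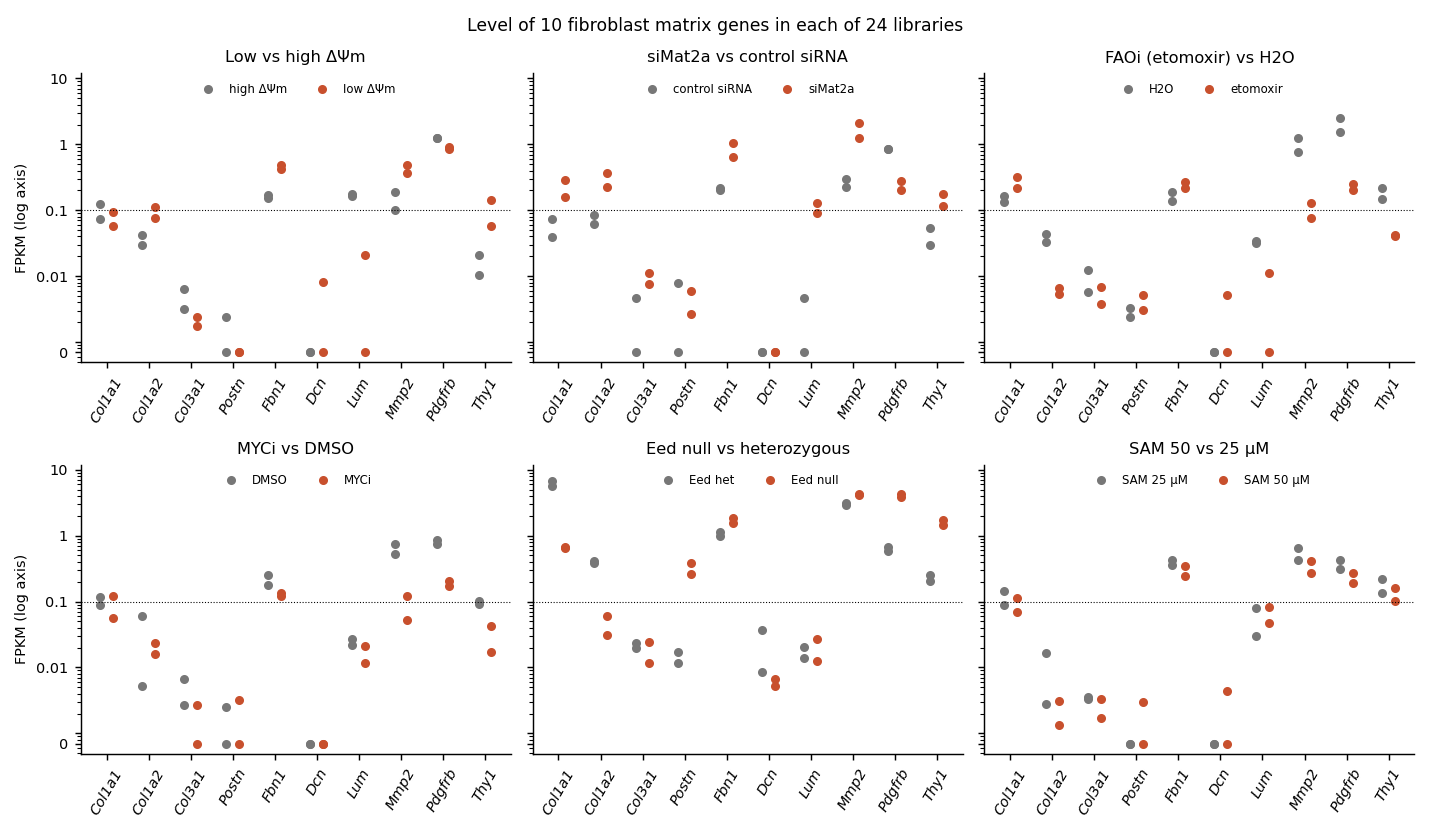
Level of the 10 members (FPKM, log axis) in each of the 24 libraries, 1 panel per table, with grey points for control and red points for treated libraries and values of 0 drawn at the bottom. The dotted line marks 0.1 FPKM, and Col3a1 and Dcn lie under it in every library.

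The stretches before the start sites of Col3a1 and Postn are shown because these are the members with a RefSeq entry at the annotated gene start. They are the 120 bases before the RefSeq start on the plus strand of GRCm38.p6, chr1:45311418-45311537 and chr3:54360987-54361106. Capitals mark TATAAA, which was searched with CCAAT on both strands.
Col3a1: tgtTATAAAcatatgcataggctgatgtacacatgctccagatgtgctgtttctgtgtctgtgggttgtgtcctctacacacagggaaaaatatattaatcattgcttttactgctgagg
Postn: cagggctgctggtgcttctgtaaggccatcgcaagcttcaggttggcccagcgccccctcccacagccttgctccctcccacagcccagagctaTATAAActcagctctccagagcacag
The match begins at base -117 from the start in Col3a1 and at base -26 in Postn, and CCAAT was in neither. Of 32851 promoters of this length, 6.34% hold TATAAA and 21.3% hold CCAAT. CG, the dinucleotide that can be methylated, occurs 0 times in the Col3a1 stretch and 2 times in that of Postn, beside a median of 3 over all promoters.

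The Eed lines, the only ones described as grown on feeders, held the highest Col1a1 and Col1a2 levels of the series, and both were in the heterozygous line. Col1a1 stood at 5.69 and 6.8 FPKM in the Eed heterozygous and at 0.65 and 0.681 in the Eed null libraries, a level 9.38 times lower in the null line. Col1a2 stood at 0.38 and 0.419 FPKM in the heterozygous and at 0.0316 and 0.0598 in the null libraries, 8.75 times lower. The groups did not overlap for either chain. How many of all genes had groups without overlap was not counted, and overlap is given here and below as a description only. In limma's fit to log2(FPKM + 0.1) over all genes, Col1a1 fell by 3.04 on the log2 scale (SE 0.14, adjusted p = 0.00102) and the log2 fold change of Col1a2 was -1.78 (SE 0.20, adjusted p = 0.00409). Adding 0.1 makes the fold of a low gene smaller than its ratio of FPKM.

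The remaining tested members went the other way in the same libraries. Pdgfrb stood at 0.68 and 0.594 FPKM in the heterozygous and at 3.89 and 4.36 in the null libraries, which is 2.52 on the log2 scale (SE 0.14, adjusted p = 0.00128). Thy1 stood at 0.204 and 0.257 FPKM against 1.44 and 1.73, which is 2.35 on the log2 scale (SE 0.19, adjusted p = 0.00228). The groups overlapped for neither gene, and the levels were 6.48 and 6.86 times higher in the null line. Postn rose from 0.0116 and 0.0174 FPKM, an estimated 6 and 9 fragments, to 0.262 and 0.385, an estimated 148 and 302 fragments. Its log2 fold change was 1.87 (SE 0.22, adjusted p = 0.00483), and these were the only 2 libraries with more than 10 fragments of Postn. Fbn1 (1 and 1.14 FPKM against 1.57 and 1.86) and Mmp2 (2.95 and 3.11 against 4.3 and 4.2) also passed, with log2 fold changes of 0.63 (adjusted p = 0.0374) and 0.47 (adjusted p = 0.0252).

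Thus 5 of the 7 members tested in the Eed table were called higher and 2 lower, beside 24.2% of all genes tested called higher and 12.1% called lower. The authors' FPKM do not place the typical gene at the same level in both groups of every table, so that each comparison was repeated after median-of-ratios scaling, which sets the median gene ratio of the libraries to be equal. In the Eed table the median log2 fold change of all genes was 0.11 as deposited and 0.0069 after scaling. After scaling 4 members were higher and 2 lower, beside 25.3% and 22.5% of genes, and Mmp2 was no longer called (log2 fold change 0.36, adjusted p = 0.056). Leaving out any single library of the 4 left 3 members called higher, as Fbn1 and Mmp2 then missed the threshold.

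Among the 3 members too low for a test in the Eed lines, Col3a1 and Lum overlapped between the genotypes and Dcn did not. Col3a1 stood at 0.0231 and 0.0197 FPKM in the heterozygous and at 0.0118 and 0.0243 in the null libraries, and the groups overlapped. Per gene length, the heterozygous libraries held 0.00406 and 0.0029 of Col3a1 for each unit of Col1a1. Lum stood at 0.0206 and 0.0137 FPKM against 0.0126 and 0.0272, also with overlap. Dcn was at 0.00864 and 0.0374 FPKM in the heterozygous and 0.00527 and 0.00665 in the null libraries, an estimated 3 and 13 against 2 and 3.5 fragments. Its FPKM were lower in the null line, the direction of type I collagen, at fragment counts close to the limit of 3 in 3 of the 4 libraries. The 13 fragments of 1 heterozygous library were the most of any library.

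Other genes of fibroblasts also moved in both directions. Of 6 contractile genes of fibroblasts, all tested, 4 were lower and 1 higher in the null line, and their summed level was 43.7 and 49.9 FPKM in the heterozygous and 23.7 and 29.3 in the null libraries. Acta2, the smooth muscle actin of activated fibroblasts, fell from 18.5 and 20.8 to 2.02 and 2.8 FPKM (log2 fold change -2.99, adjusted p = 0.00136). Cnn1 and Tagln, which bind actin filaments, fell by 1.98 (adjusted p = 0.00373) and 1.84 (adjusted p = 0.00643) on the log2 scale. Of 20 further fibroblast matrix genes, 17 were tested, of which 7 were higher and 5 lower, and 7 and 6 after scaling. The matricellular gene Thbs1 fell from 7 and 8.06 to 1.89 and 2.19 FPKM (adjusted p = 0.00192), and Fbln5, needed for elastic fibres, rose from 0.365 and 0.287 to 4.57 and 5.33 (adjusted p = 0.00104). Of 10 mesenchymal transcription factors, 5 were tested, 4 of them were higher and none lower. Twist1 rose from 0.94 and 0.981 to 2.2 and 2.27 FPKM, Foxf1 from 0.0406 and 0.0313 to 0.231 and 0.189 and Foxd1 from 0.0758 and 0.0719 to 0.248 and 0.333 (adjusted p = 0.00449, 0.00971 and 0.0126). Foxf1 and Foxd1 passed the filter through the null libraries alone, which fixed their direction.

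Markers of another cell type moved with Pdgfrb, Thy1 and Postn in the null line. Of 9 genes of the primitive endoderm, the extraembryonic layer that lines the blastocyst cavity, 8 were higher and none lower, and their summed level was 25.5 and 26.9 FPKM in the heterozygous and 49.8 and 54.6 in the null libraries. Gata6, the regulator of that lineage, rose from 0.465 and 0.403 to 6.51 and 6.62 FPKM (log2 fold change 3.64, adjusted p = 0.000956). Dab2, an endocytic adaptor, and Sox7 rose by log2 fold changes of 1.81 (adjusted p = 0.00118) and 2.01 (adjusted p = 0.00158). Of 4 Y-linked genes, 3 were lower in the null line, and the methods give both genotypes as male. Eed itself stood at 11.4 and 11.6 FPKM in the heterozygous and 2.72 and 2.78 in the null libraries, 4.19 times lower. The part of these cell types, of feeders and of the genotype in the members' levels was not tested.

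**Figure D2:**
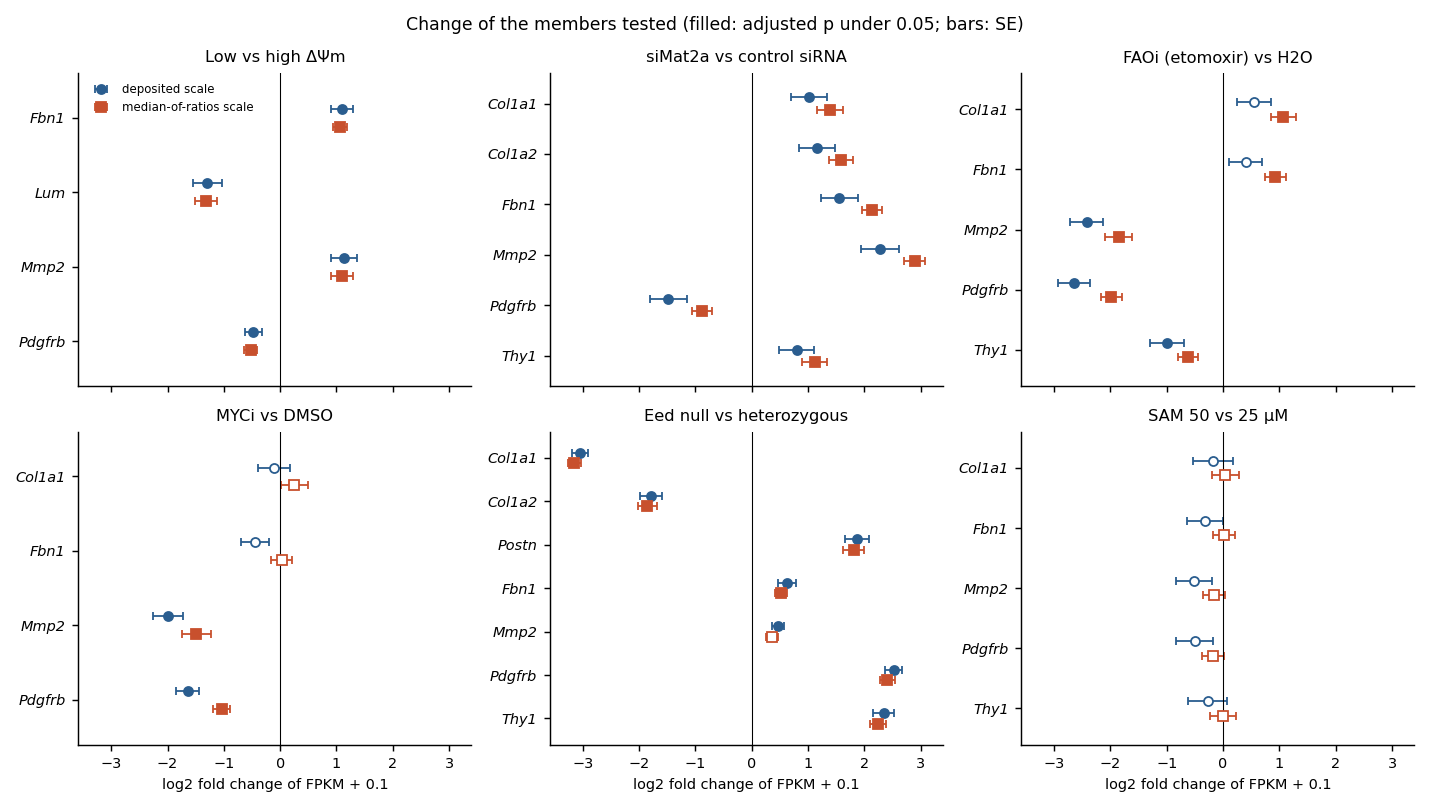
Log2 fold change of FPKM + 0.1 (horizontal axis) of each member tested in the 6 comparisons, with bars of 1 SE, blue circles for the deposited scale and red squares for the median-of-ratios scale, filled where the adjusted p was under 0.05. In the Eed comparison Col1a1 and Col1a2 lie left of 0 and the other 5 members right of it.

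In Mat2a-depleted ESCs, 5 of the 6 members tested rose and Pdgfrb fell. Of those that rose, Col1a1, Col1a2 and Thy1 passed the filter through the Mat2a siRNA libraries alone, which fixed their direction. Fbn1 stood at 0.221 and 0.204 FPKM with control siRNA and at 1.04 and 0.639 with Mat2a siRNA (log2 fold change 1.56, SE 0.33, adjusted p = 2.73e-05). Mmp2 stood at 0.294 and 0.227 against 2.14 and 1.26 FPKM (log2 fold change 2.28, SE 0.34, adjusted p = 5.1e-10). Neither gene's groups overlapped. Col1a1 went from 0.0389 and 0.0747 to 0.283 and 0.16 FPKM (log2 fold change 1.02, SE 0.32, adjusted p = 0.00549). Col1a2 went from 0.0617 and 0.0847 to 0.362 and 0.223 FPKM (log2 fold change 1.16, SE 0.32, adjusted p = 0.00157). Thy1 went from 0.0301 and 0.0541 to 0.179 and 0.118 FPKM (log2 fold change 0.80, SE 0.31, adjusted p = 0.027). As ratios of mean FPKM, Col1a1, Col1a2, Fbn1 and Thy1 were 3.89, 3.99, 3.95 and 3.52 times higher, and Mmp2 6.53 times.

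In the same libraries Pdgfrb went from 0.859 and 0.843 to 0.281 and 0.203 FPKM, 3.51 times lower (log2 fold change -1.48, SE 0.33, adjusted p = 7.26e-05). Lum was not tested but went from 0.00461 and 0 to 0.128 and 0.0906 FPKM, an estimated 0.5 and 0 against 20 and 19.5 fragments. Col3a1 had an estimated 0 and 2 fragments with control siRNA and 7 and 6.5 with Mat2a siRNA. Postn had at most 4.5 fragments in any of the 4 libraries, and Dcn was listed at 0 in all of them.

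The 5 members called higher and 1 lower stand beside 13.1% of all genes called higher and 36.8% called lower. The median log2 fold change of all genes here was -0.6263, and after scaling (median 0.0364) the same 5 members were called higher and Pdgfrb lower, beside 23.0% and 19.8% of genes. Without replicate 1 of the control siRNA, 2 members were still called higher, and without replicate 1 of the Mat2a siRNA 3 were. When 1 FPKM was required, only Mmp2 was called higher (adjusted p = 4.33e-09). When no filter was applied to low values, none of the 5 was called, with adjusted p from 0.0501 (Mmp2) to 0.0883 (Col1a1). The 1 member called higher without the filter was one that the filter had left untested. The share of all genes called under these settings was not counted. Mat2a itself stood at 48.5 and 45.1 FPKM with control siRNA and at 13.5 and 9.44 with its own siRNA, 4.07 times lower.

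The fibroblast lists held calls in both directions in Mat2a-depleted cells, and their balance moved with the scaling. Of 4 contractile genes tested, none rose on the deposited scale and 2 fell, Tpm2 from 0.496 and 0.374 to 0.127 and 0.127 FPKM (adjusted p = 0.000902) and Acta2 from 0.298 and 0.179 to 0.0857 and 0.0632 (adjusted p = 0.0107). After scaling 1 was called higher and none lower. Of 12 further matrix genes tested, 4 rose and 4 fell, and after scaling 7 and 3 did. Col5a2, a fibrillar collagen chain, rose from 0.329 and 0.244 to 2.84 and 1.64 FPKM (log2 fold change 2.56, adjusted p = 3.72e-12), and Thbs2 fell from 0.245 and 0.354 to 0.0403 and 0.0146 (adjusted p = 3.69e-06). Of 3 mesenchymal factors tested, 1 fell, Foxd1 (log2 fold change -1.10, adjusted p = 0.00275), which was not called after scaling (adjusted p = 0.0926), when 2 of the 3 were higher and none lower. Of 7 primitive endoderm genes tested, 4 rose and none fell on both scales, with Gata6 going from 0.0277 and 0.0285 to 0.833 and 0.506 FPKM (log2 fold change 2.55, adjusted p = 1.4e-13) and Dab2 from 0.0814 and 0.0961 to 1.01 and 0.541 (log2 fold change 2.16, adjusted p = 9.89e-10). Gata6 and Dab2 passed the filter through the Mat2a siRNA libraries alone, which fixed their direction. Pdgfra, the other PDGF receptor and a marker of that lineage, rose from 0.151 and 0.216 to 1.08 and 0.73 FPKM (log2 fold change 1.81, adjusted p = 7.03e-07) while Pdgfrb fell. Their part in the members' rise was not tested.

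In qESCs, the members again split. Fbn1 stood at 0.151 and 0.17 FPKM in high ΔΨm and at 0.488 and 0.427 in low ΔΨm cells (log2 fold change 1.10, SE 0.20, adjusted p = 0.00196). Mmp2 stood at 0.101 and 0.187 against 0.483 and 0.373 FPKM (log2 fold change 1.13, SE 0.23, adjusted p = 0.00462). They were 2.85 and 2.97 times higher in low ΔΨm cells, with no overlap. Pdgfrb stood at 1.27 in both high ΔΨm libraries and at 0.854 and 0.914 FPKM in the low ΔΨm ones (log2 fold change -0.48, SE 0.15, adjusted p = 0.0402). Lum stood at 0.177 and 0.163 FPKM in high ΔΨm and at 0.0212 and 0 in low ΔΨm cells, an estimated 28 and 19 against 3 and 0 fragments (log2 fold change -1.29, SE 0.26, adjusted p = 0.00407). High ΔΨm cells thus held the highest Lum levels of the series with Dcn, its neighbour, listed at 0 in both libraries.

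The type I collagen chains did not pass the filter in the sorted cells. Col1a1 stood at 0.0731 and 0.123 FPKM in high and at 0.0572 and 0.0951 in low ΔΨm cells, with overlap. Col1a2 stood at 0.0299 and 0.0422 against 0.113 and 0.0763 FPKM without overlap, and Thy1 at 0.0103 and 0.021 (2 and 3 fragments) against 0.144 and 0.058 (25 and 7.3 fragments). Col3a1 had at most 3 fragments and Postn at most 1 in any of these libraries.

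Of the 4 members tested in the sorted cells, 2 were thus higher and 2 lower, beside 14.0% and 6.45% of genes, and after scaling the 2 and 2 stood beside 19.4% and 17.0%. Pdgfrb missed the threshold when any 1 of the 4 libraries was left out (adjusted p of 0.0722 to 0.266) and when no filter was used (adjusted p = 0.126). Of 11 collagen folding and processing genes tested, 5 rose, 6 were not called and none fell, and 8 were higher after scaling. Those that rose included P4ha2, a prolyl hydroxylase subunit, from 0.093 and 0.0798 to 1.06 and 0.913 FPKM (log2 fold change 2.54, adjusted p = 1.67e-06), Plod2, a lysyl hydroxylase (log2 fold change 1.59, adjusted p = 1.33e-05), and P4ha1 (log2 fold change 0.81, adjusted p = 0.00235). Of 10 basement membrane genes 4 rose and none fell as deposited, and 8 were higher and 2 lower after scaling, with Lamb1 going from 0.756 and 0.852 to 3.13 and 2.75 FPKM (adjusted p = 6.08e-06) and Col4a1 from 0.256 and 0.322 to 0.914 and 0.719 (adjusted p = 0.000644).

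Among the fibroblast lists in the sorted cells, 3 of 12 further matrix genes rose and 1 fell (3 and 2 after scaling), 2 of 3 contractile genes rose and 2 of 3 mesenchymal factors rose. Thbs1 rose from 0.0238 and 0.0207 to 0.284 and 0.271 FPKM (adjusted p = 0.00044), Cald1, which binds actin and tropomyosin, from 2.54 and 2.94 to 4.7 and 4.7 (adjusted p = 0.00266), and Foxd1 from 0.166 and 0.25 to 0.809 and 0.79 (adjusted p = 0.000137). Fbln5 fell from 0.317 and 0.29 to 0.126 and 0.129 FPKM (adjusted p = 0.0147). Of 7 primitive endoderm genes 2 rose, Gata4 and Gata6 (adjusted p = 0.000341 and 0.0341). Gata4, Gata6 and Thbs1 passed the filter through the low ΔΨm libraries alone, which fixed their direction. All 3 Y-linked genes tested rose as well, their summed level going from 5.22 and 5.63 to 17.5 and 15.4 FPKM. What these have to do with Fbn1 and Mmp2 was not tested.

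With etomoxir, Mmp2, Pdgfrb and Thy1 fell, and Col1a1 and Fbn1 were called on one scale and not on the other. Mmp2 stood at 0.761 and 1.25 FPKM with H2O and at 0.129 and 0.0756 with etomoxir, 9.81 times lower (log2 fold change -2.42, SE 0.29, adjusted p = 4.53e-15). Pdgfrb stood at 1.55 and 2.48 against 0.206 and 0.254 FPKM, 8.79 times lower (log2 fold change -2.65, SE 0.29, adjusted p = 2.63e-18). Thy1 stood at 0.148 and 0.221 against 0.0426 and 0.0403 FPKM, 4.46 times lower (log2 fold change -0.998, SE 0.30, adjusted p = 0.00192). For these 3 genes every etomoxir library lay under both controls, in a table in which 51.3% of all genes were called lower. Col1a1 stood at 0.134 and 0.166 FPKM with H2O and at 0.319 and 0.219 with etomoxir (log2 fold change 0.55, SE 0.30, adjusted p = 0.0912), and Fbn1 at 0.136 and 0.191 against 0.272 and 0.221 (log2 fold change 0.40, SE 0.30, adjusted p = 0.228).

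The median log2 fold change of all genes with etomoxir was -0.6552 as deposited, and relative to it Col1a1 and Fbn1 were higher. After scaling (median 0.0476) their log2 fold changes were 1.07 (SE 0.22, adjusted p = 0.0122) and 0.93 (SE 0.19, adjusted p = 0.012), while Mmp2, Pdgfrb and Thy1 were still called lower at -1.85, -1.99 and -0.62. As deposited, 0 of 5 members were higher and 3 lower, beside 13.9% and 51.3% of genes, and limma called none higher at an unadjusted p under 0.05. After scaling 2 were higher and 3 lower, beside 30.9% and 31.2%.

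The chains of type I collagen parted with etomoxir. Col1a2, which was not tested, went from 0.0333 and 0.0435 to 0.00665 and 0.0054 FPKM, an estimated 20 and 19 against 5.5 and 5 fragments, while Col1a1 went from an estimated 42.5 and 38.4 to 139 and 107 fragments. The level of Col1a2 per Col1a1 was 0.249 and 0.261 with H2O and 0.0209 and 0.0247 with etomoxir. Col3a1 had an estimated 6 and 2 against 2.5 and 5 fragments, and Postn, Lum and Dcn had at most 4 in any of the 4 libraries.

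Among other genes in the etomoxir table, 4 of 11 further matrix genes rose and 5 fell as deposited, and 6 were higher and 3 lower after scaling, with Thbs1 going from 0.088 and 0.112 to 2.23 and 2.37 FPKM (log2 fold change 3.59, adjusted p = 1.05e-32) and Fbln1 from 38.4 and 48.7 to 5.68 and 4.98 (log2 fold change -3.0005, adjusted p = 8.19e-22). Serpinf1, a secreted serpin, rose (log2 fold change 2.08, adjusted p = 5.44e-12). Of 4 contractile genes, 1 fell and none rose as deposited, and 2 rose and none fell after scaling. Mmp14, the membrane protease that activates Mmp2, fell with it from 0.534 and 0.854 to 0.111 and 0.0912 FPKM (log2 fold change -1.95, adjusted p = 4.4e-10). Timp3, an inhibitor of such proteases, rose from 0.0972 and 0.0814 to 0.98 and 1.06 FPKM (log2 fold change 2.57, adjusted p = 1.01e-16). Of the PDGF ligands, Pdgfa fell (log2 fold change -1.67, adjusted p = 8.4e-08) and so did Pdgfc (log2 fold change -1.57, adjusted p = 3.77e-07). Here 51.3% of all genes were called lower, and a link of these ligands to Pdgfrb was not tested. Of 6 primitive endoderm genes tested 5 rose and none fell, led by Gata6 (0.162 and 0.158 against 2.12 and 2.06 FPKM, adjusted p = 2.97e-24).

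With the MYC inhibitor, Mmp2 and Pdgfrb fell again and Col1a1 and Fbn1 were not called. Mmp2 stood at 0.735 and 0.535 FPKM with DMSO and at 0.0523 and 0.121 with the inhibitor, 7.33 times lower (log2 fold change -1.99, SE 0.26, adjusted p = 0.000129). Pdgfrb stood at 0.851 and 0.75 against 0.175 and 0.203 FPKM, 4.24 times lower (log2 fold change -1.64, SE 0.20, adjusted p = 9.91e-05). Both lay under the controls in both treated libraries, in a table in which 57.8% of all genes were called lower. Col1a1 stood at 0.116 and 0.0878 against 0.0567 and 0.122 FPKM with overlap (log2 fold change -0.11, SE 0.29, adjusted p = 0.751). Fbn1 stood at 0.254 and 0.179 against 0.122 and 0.137 FPKM (log2 fold change -0.45, SE 0.25, adjusted p = 0.133). Thy1 passed no filter here and stood at 0.103 and 0.0907 against 0.0174 and 0.0422 FPKM, an estimated 11.5 and 12.5 against 4 and 9 fragments. Col1a2 had an estimated 27.5 and 3 fragments in the DMSO libraries, so that its control level was set by 1 of them.

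As deposited, 0 of 4 members were higher and 2 lower with the inhibitor, beside 7.89% and 57.8% of genes, and limma called none higher at an unadjusted p under 0.05. The median log2 fold change of all genes was -0.6531. After scaling the 2 members were still lower, at -1.49 (adjusted p = 0.00954) for Mmp2 and -1.04 (adjusted p = 0.00565) for Pdgfrb, beside 25.4% of genes higher and 28.4% lower, and the log2 fold changes of Col1a1 and Fbn1 turned to 0.25 and 0.03, neither called. Mmp14 fell here too, from 0.512 and 0.485 to 0.069 and 0.124 FPKM (log2 fold change -1.62, adjusted p = 0.000226), and so did Pdgfc and Pdgfa (log2 fold changes of -1.44 and -1.15, adjusted p = 6.51e-05 and 0.000169). Of 12 further matrix genes 4 rose and 5 fell, with Fbln1, Pcolce and Ccn2 at log2 fold changes of -1.82, -1.63 and -1.26 (adjusted p = 3.47e-05, 4.59e-05 and 0.00012).

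Between 25 and 50 µM SAM none of the 5 members tested was called, at an unadjusted p under 0.05 also none on either scale. Mmp2 stood at 0.64 and 0.426 FPKM at 25 µM and at 0.407 and 0.274 at 50 µM (log2 fold change -0.52, SE 0.33, adjusted p = 0.603), and Pdgfrb at 0.424 and 0.313 against 0.267 and 0.192 (log2 fold change -0.51, SE 0.33, adjusted p = 0.603). Fbn1 stood at 0.432 and 0.362 against 0.352 and 0.248 FPKM, Col1a1 at 0.147 and 0.0888 against 0.114 and 0.0694 and Thy1 at 0.222 and 0.137 against 0.158 and 0.103. The members' median log2 fold change was -0.32 beside -0.3975 for all genes. After scaling the members' log2 fold changes lay between -0.18 and 0.04. Of all genes tested between the doses, 0.389% were higher and 0.493% lower as deposited, and after scaling 0.00% in each direction, although the unadjusted p was under 0.05 for 960 genes on the higher and 489 on the lower side. Lum had an estimated 9 and 4.2 fragments at 25 µM and 12 and 9.1 at 50 µM, and Col1a2, Col3a1, Postn and Dcn had at most 3 in all but 1 library, in which Col1a2 had 9.5.

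The ratio of 2 members within a library does not depend on the scaling. The level of Col1a2 per Col1a1 ranged from 0.0209 to 1.97 over the 20 libraries with more than 3 fragments of each, a 94.3-fold range. Mmp2 per Col1a1 ranged from 0.346 to 8.45 and Pdgfrb per Col1a1 from 0.0874 to 22 over all 24 libraries, 24.4-fold and 252-fold ranges. Mmp2 per Pdgfrb ranged from 0.0795 to 7.63. In the Eed table Col1a2 per Col1a1 stayed at 0.0669 and 0.0617 in the heterozygous and 0.0486 and 0.0878 in the null libraries, while Mmp2 per Col1a1 went from 0.519 and 0.458 to 6.62 and 6.17. In the Mat2a table Col1a2 per Col1a1 was 1.58 and 1.14 with control and 1.28 and 1.4 with Mat2a siRNA. Tables were normalized separately, and ratios between them are given as a description.

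**Figure D3:**
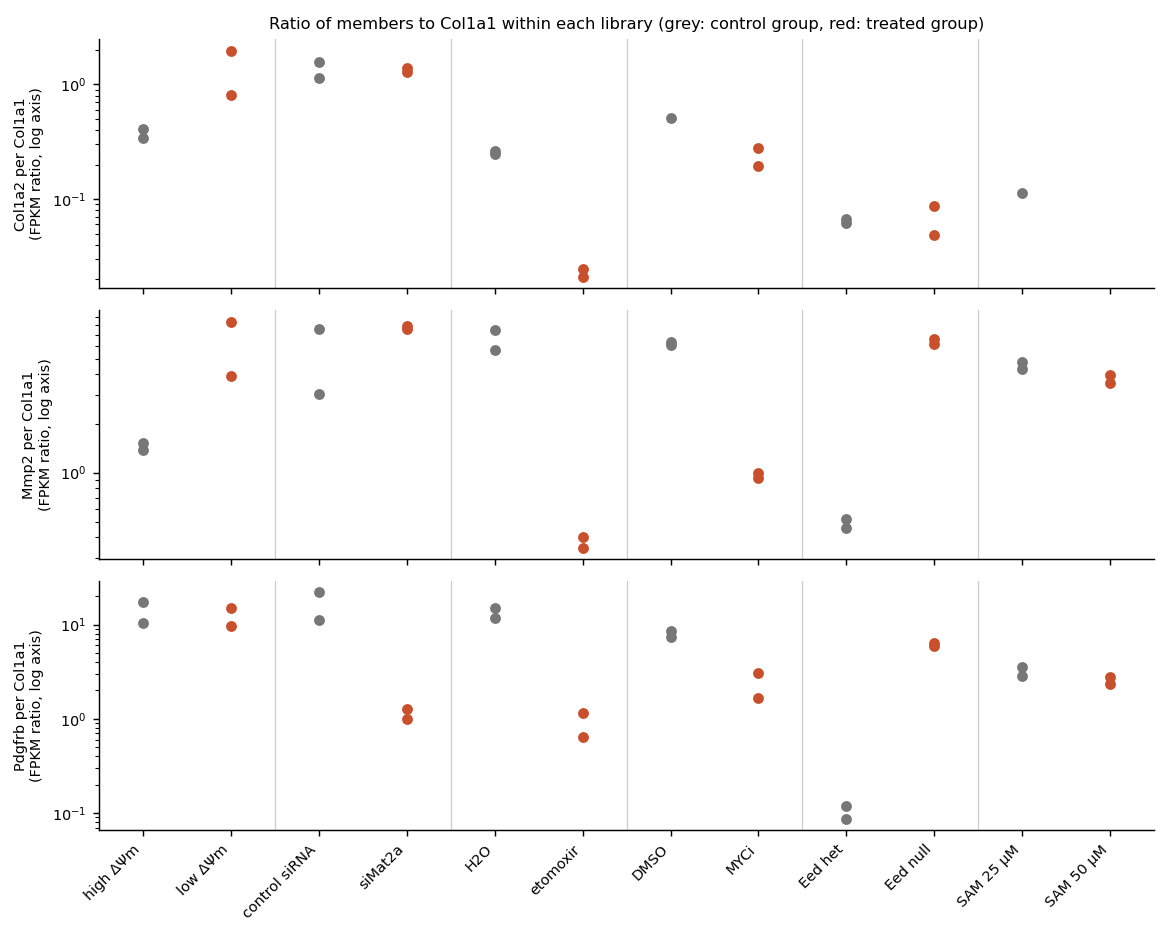
Level of Col1a2, Mmp2 and Pdgfrb per Col1a1 (ratio of FPKM, log axis) in each library with more than 3 estimated fragments of both genes, by group, with grey points for control and red points for treated groups. Col1a2 per Col1a1 spans 0.0209 to 1.97 and is overlapping between groups in the Eed and Mat2a tables.

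Over the 6 comparisons, 31 member tests gave 12 calls higher and 10 lower as deposited, and 13 higher and 10 lower after scaling. These calls include the members named above whose direction was fixed by passing the filter through a single group. The pair counts that follow include them too, and so cannot show on their own whether the members moved together. Every called pair of Col1a1 and Col1a2 holds such a call. So do the pairs of Mmp2 and Thy1 in the Mat2a and etomoxir tables. Of the pairs of members called in the same comparison, 27 of 46 had the same direction and 19 opposite directions as deposited. After scaling these were 24 of 47 and 23. As deposited, 51.3% of all genes were called lower and 13.9% higher with etomoxir, and 57.8% and 7.89% with MYCi. A shared direction is thus common among all called genes there, and its share over gene pairs was not counted. The member pairs there with the same direction were 3 of 3 with etomoxir and 1 of 1 with MYCi. After scaling they were 4 of 10 and 1 of 1. As deposited, Mmp2 was called with Thy1 in 3 comparisons and with Fbn1 in 3, each time in the same direction. After scaling it was called with Thy1 in 2, in the same direction, and with Fbn1 in 3, of which 1 in opposite directions. Mmp2 and Pdgfrb were called together in 5 as deposited, in the same direction in 3 and in opposite directions in 2. After scaling they were called together in 4, in the same direction in 2 and in opposite directions in 2. Col1a1 and Col1a2 were called together in 2 comparisons, in the same direction, on both scales. Col1a1 and Pdgfrb were called together in the same 2 as deposited and in 3 after scaling, each time in opposite directions. Comparisons were not tested against each other.

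The remaining lists are to be read beside the share of all genes called in each comparison, which was 51.3% lower with etomoxir and 57.8% with MYCi as deposited. Collagen folding and processing genes numbered 7 higher and 0 lower of 12 in the Eed table, 2 higher and 7 lower of 12 in the Mat2a table, 1 and 7 of 12 with etomoxir and 0 and 8 of 10 with MYCi. After scaling these counts were 8 and 0, 4 and 7, 4 and 5, and 2 and 5 in the same order. In this list P4ha2 had log2 fold changes of 2.42 (adjusted p = 6.68e-11) in Mat2a-depleted and 1.54 (adjusted p = 0.00396) in Eed null cells. Basement membrane genes numbered 4 higher and 0 lower of 10 in the Eed, 2 and 2 in the Mat2a, 1 and 4 in the etomoxir and 0 and 5 in the MYCi table, and after scaling 5 and 1, 4 and 2, 4 and 3, and 7 and 1. Genes of MMP activation and inhibition numbered 3 higher and 0 lower of 6 in the Eed, 0 and 1 of 4 in the Mat2a, 1 and 4 of 6 in the etomoxir and 0 and 4 of 6 in the MYCi table, and 2 and 0 of 4 in the sorted cells. After scaling these were 3 and 0, 1 and 1, 1 and 3, 1 and 3, and 3 and 0. Small leucine-rich proteoglycans other than Lum and Dcn had at most 4 genes tested per comparison, and as deposited 1 call in all, Ogn, lower with etomoxir (adjusted p = 0.00754, and 0.808 after scaling). After scaling 2 of 3 were higher with Mat2a siRNA and 2 of 3 with MYCi, and 1 of 4 was lower in Eed null cells. None of these lists had a gene called between the SAM doses.

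**Figure D4:**
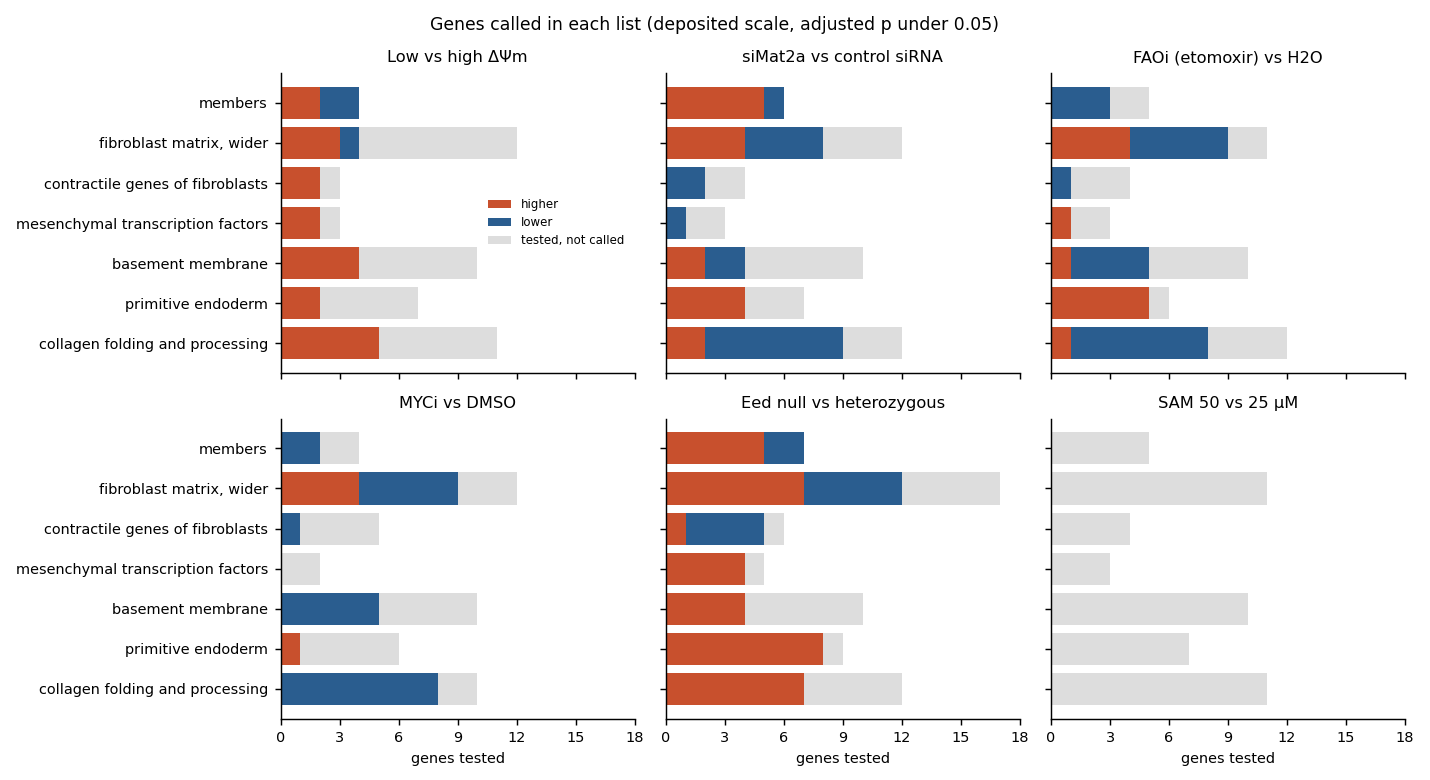
Number of genes tested in each list (horizontal axis) that were higher (red), lower (blue) or not called (grey) in the 6 comparisons on the deposited scale. The contractile genes have 4 lower of 6 in the Eed comparison, where 8 of 9 primitive endoderm genes are higher.

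The genes closest to a member across libraries were sought for the 3 members tested in every table, by Pearson r of log2(FPKM + 0.1) centred on each table, over 24 libraries and 19512 genes. These r values are a description, since libraries of 1 table share their scale and contrast. Closest to Fbn1 were Npnt (0.965), a basement membrane ligand of integrins, Pkp2 (0.959), a desmosomal plakophilin, and Crim1 (0.943). Closest to Mmp2 were D1Pas1 (0.956), Dcbld1 (0.933) and Arnt2 (0.929), and closest to Pdgfrb were Cdx2 (0.987), a regulator of trophectoderm, Crxos (0.983) and Rapgef3 (0.981).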

How the data were processed

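Total RNA libraries without ribosomal RNA were trimmed by the authors (Trim Galore, cutadapt), aligned to mm10 (TopHat2 2.1.1), freed of duplicates (SAMtools 1.9) and counted with featureCounts, without strand and in fractions where a fragment fell on several places, over Ensembl genes, NONCODE transcripts and the repeats of HOMER 4.10. The deposited values are FPKM that the authors calculated with edgeR, 1 table per experiment, without pooling, and every value column belonged to a labelled library. The authors added ERCC spike-in RNA and used it as control genes in their own differential tests (RUVSeq, DESeq2). Median-of-ratios scaling does not use the spike-ins and removes any shift shared by most genes. Which of the 2 scales is closer to RNA per cell was not tested. Of 55385 Ensembl genes, 55144 matched GENCODE M21, the source of symbols, places and exon lengths.

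Limma 3.58.1 (R 4.3.3) with an intensity trend was run on log2(FPKM + 0.1) of genes that reached 0.1 FPKM in 2 or more libraries, separately for the 4 libraries of each comparison, with Benjamini-Hochberg adjustment over all genes tested and a threshold of 0.05. Levels are per library and fold ratios are of mean FPKM. FPKM times exon length moves in steps worth 1 fragment, from which fragments were estimated. Of 126 member values under 50 fragments and above 0, 110 lay within 0.1 of a multiple of 0.5 fragments. Fractions are no counts, so that no count test was run. Alternatives were median-of-ratios scaling, pseudocounts of 1 and 0.01, no filter, a filter at 1 FPKM, a replicate block and leaving out each library. The script was tested on simulated data.

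The members and lists were chosen with earlier results of these data known. The text names all members, up to 3 called genes of smallest adjusted p per list and comparison, and the 3 genes closest to members tested in all tables. Lists were further fibroblast matrix genes, contractile genes, mesenchymal factors, basement membrane, primitive endoderm, collagen processing, MMP activation, PDGF, TGF-beta, small leucine-rich proteoglycans, naive pluripotency and Y-linked genes. Promoter sequences are RefSeq's, given for the members with an entry at the annotated gene start (2 of 10).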

Additional observations from a re-analysis of the deposited data

How the results depend on the processing

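With 2 libraries a group and members mostly under 1 FPKM, some calls rest on few fragments. An example is Lum in the sorted cells, with an estimated 28 and 19 against 3 and 0. Other calls rest on many more, such as Pdgfrb in the Eed table, with 222 and 194 against 1385 and 2154. Of the settings, the filter mattered most. With no filter, members untested before entered the fit, so that the counts cover another set of members. Members called higher went from 2 to 0 and lower from 2 to 1 in the sorted cells. In the Mat2a table they went from 5 to 1 and from 1 to 0, and the 1 was none of the earlier 5. Members higher went from 5 to 4 in the Eed table, and members lower from 3 to 4 with etomoxir and from 2 to 3 with MYCi. Log2 fold changes of the members tested before were unchanged, and more genes were fitted. The share of all genes called was not counted without the filter, at 1 FPKM or with a library left out. Whether these changes in counts are particular to the members was thus not tested. Requiring 1 FPKM, which removes most members outside the Eed lines, left 0 higher and 1 lower in the sorted cells. It left 1 and 0 in the Mat2a table, 1 lower with etomoxir and 0 lower with MYCi. In the Eed lines 4 were still called higher (Fbn1, Mmp2, Pdgfrb and Thy1) and 1 lower (Col1a1). Median-of-ratios scaling raised the members higher with etomoxir from 0 to 2, and turned the uncalled log2 fold changes of Col1a1 and Fbn1 to 0.2479 and 0.0268 with MYCi and to 0.038 and 0.0141 between SAM doses. Leaving out 1 library gave 1 lower in each case in the sorted cells, 2 to 5 higher in the Mat2a table (2 without control siRNA replicate 1, 3 without Mat2a siRNA replicate 1) and 3 higher in each case in the Eed table. The log2 fold change of Col1a1 ranged from -0.3621 to 0.1378 with MYCi and from -0.3757 to 0.0134 between SAM doses, above 0 without replicate 1 of MYCi and without replicate 1 of 25 µM SAM. Both other pseudocounts kept every count within 1.5 times, although Thy1 missed the threshold in the Mat2a table with a pseudocount of 1 (adjusted p = 0.0514).

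Replicate numbers are shared between groups but nothing says that they pair the libraries, and the correlation of same-numbered libraries' deviations was between -0.1 and 0.3. With the replicate block, members lower went from 2 to 1 in the sorted cells (Pdgfrb, adjusted p = 0.141) and from 0 to 1 between SAM doses (Mmp2, adjusted p = 0.0363), and no other count changed by over 1.5 times. In the etomoxir table, where the correlation was lowest, a crossed pairing chosen after seeing the data gave 0 higher and 3 lower, as without it.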

Other observations

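Growth factor lists and naive pluripotency genes gave further values in the libraries in which the members split. TGF-beta is known to induce collagen in fibroblasts, and its part in the members' levels was not tested. Of 8 genes of TGF-beta ligands, receptors and storage, 5 were higher and 1 lower in Eed null cells, beside 24.2% and 12.1% of all genes. Tgfb1 rose there from 0.537 and 0.648 to 2.5 and 2.62 FPKM (log2 fold change 1.95, adjusted p = 0.00221) and Tgfb3 from 0.0903 and 0.0853 to 0.57 and 0.619 (adjusted p = 0.00282). In Mat2a-depleted cells Tgfb1 fell from 1.04 and 1.32 to 0.481 and 0.189 FPKM (log2 fold change -1.63, adjusted p = 1.42e-05). There 1 of 8 list genes was higher and 2 lower, beside 13.1% and 36.8% of all genes. With etomoxir 3 of 7 were higher and 1 lower, with MYCi 3 and 2 of 8, in the sorted cells 1 and 0 of 7 and between SAM doses none of 6. After scaling the counts were 2 and 2 with Mat2a siRNA, 4 and 0 with etomoxir and 5 and 1 with MYCi. Ltbp2, which binds fibrillin microfibrils, rose with Fbn1 in the sorted cells (log2 fold change 0.81, adjusted p = 0.0471, and 0.0548 after scaling) and in Mat2a-depleted cells (log2 fold change 2.104, adjusted p = 1.96e-09), and rose with etomoxir (log2 fold change 1.55, adjusted p = 9.32e-07).

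Among the other PDGF genes, 3 of 5 were higher and none lower in Eed null cells, with Pdgfb going from 0.414 and 0.467 to 1.61 and 1.96 FPKM (adjusted p = 0.00322) and Pdgfra from 0.162 and 0.305 to 1.21 and 1.55 (adjusted p = 0.00595), both in the direction of Pdgfrb. Of 4 tested, 1 was higher and 2 lower in the Mat2a table, 0 and 2 in the etomoxir and MYCi tables, 0 and 1 in the sorted cells and none between SAM doses. After scaling 3 were higher and 1 lower in Eed null cells, 1 and 1 in both the Mat2a table and the sorted cells, and 1 and 2 with MYCi. All 10 naive pluripotency genes were lower with etomoxir and with MYCi as deposited, 6 of 10 were lower with Mat2a siRNA, 3 were higher and 3 lower in Eed null cells, 1 was higher in low ΔΨm cells and none was called between SAM doses. After scaling 10 were lower with etomoxir, 9 with MYCi and 6 with Mat2a siRNA, where 1 was higher, 4 were higher and 5 lower in Eed null cells and 5 were higher in low ΔΨm cells. The 3 Y-linked genes tested were lower with etomoxir and with MYCi, 2 of them after scaling, and none of 3 was called in the Mat2a or SAM table as deposited.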
